A study of Mus musculus with 6 samples.

Results

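Liver holds no skeletal muscle. On these liver arrays, read without a detection call, some probe sets for sarcomere, calcium handling and muscle energy genes differed between the genotypes. The 42 genes described here were listed by name for these roles, and a gene was taken as measured where at least 1 probe set of the array named it and no other gene. Each probe set reads a transcript with several short oligonucleotides. This held for 41 of the 42 genes, out of 18193 genes in all, and Xirp2, an actin-binding protein of striated muscle, had no such probe set. The set was proposed with the difference between the genotypes already known, so the values of its genes are given below as a description. How many of them passed the test run across all genes is given once, beside the share of all genes that did, and supports nothing. RNA came from the livers of C57BL/6 mice labelled as male and aged 6 to 8 weeks, of which 3 were wild type (Dnajb4+/+) and 3 lacked HLJ1, a heat shock protein encoded by Dnajb4 (Dnajb4-/-, by gene targeting in embryonic stem cells). The mice of a genotype are described as independent, each was measured on 1 Affymetrix mouse whole-genome array, and no treatment is given. The knockout is not described as limited to a cell type. All intensities are the authors' GCRMA values on a linear scale, and all differences are log2 differences, Dnajb4-/- minus Dnajb4+/+.

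Skeletal muscle contracts when calcium released from the sarcoplasmic reticulum binds troponin C on the thin filament, which lets myosin heads of the thick filament pull on actin. Fast and slow fibres build this machine from different genes for troponins, myosin heavy and light chains and calcium pumps, and the slow forms are largely shared with heart muscle. Smooth muscle of vessels uses other genes for much of its contractile machine.

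The labels were checked first. The defining hepatocyte genes read as those of liver, with the 9 measured markers at 884 or more on every array, among them Alb, the gene of serum albumin. Xist, the RNA that silences an X chromosome in female cells, read 364 to 402 on the Dnajb4+/+ arrays and 14.3 to 17.1 on the Dnajb4-/- arrays, and the Y-linked translation factor gene Eif2s3y read 62.6 to 72.3 and 77.4 to 81.3. The Dnajb4+/+ arrays therefore go against the label of 1 male mouse each. As all of them do, no value could be given without these arrays, and the genotype and the source of the RNA cannot be told apart for any difference below. The brightest of the 3 Dnajb4 probe sets read 588, 566 and 612 in Dnajb4+/+ and 467, 480 and 453 in Dnajb4-/- livers, while the arrays of the genotypes overlapped for the other 2 probe sets. On the log2 scale the Dnajb4-/- means came to 79.3% (limma over all probe sets, adjusted p = 0.00768), 96.7% and 97.6% of the Dnajb4+/+ means in these probe sets, and 90.8% for the gene as a whole (limma, adjusted p = 0.145), so loss of the Dnajb4 transcript was not seen and these values go against the Dnajb4-/- label. Where the probe sets lie relative to the targeted part of the gene is not given in the sources used here. The genotype names below therefore stand for the arrays so labelled, and each direction rests on those labels. The ratio of 3' to 5' signal of Gapdh, a sign of RNA integrity, was 1.16 to 1.19 in Dnajb4+/+ and 1.43 to 1.48 in Dnajb4-/- livers. That of Actb, the gene of beta-actin, was 2.59 to 2.68 in Dnajb4+/+ and 3.10 to 3.22 in Dnajb4-/- livers. Neither ratio overlapped between the genotypes, and the part of RNA integrity in the differences below was not tested. Across genes, the correlation was 0.998 to 0.999 between arrays of a genotype and 0.993 to 0.995 between arrays of different genotypes.

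Most of the muscle genes were dim, with 30 of 41 under the median signal of all genes (43.5) and 11 above it. In Dnajb4-/- livers 34 were lower (35 with quantile normalization and 33 with each array centred on its brighter probe sets) and 7 were higher, with a median log2 difference of -0.21, beside 0.0075 for all genes. The Dnajb4-/- values lay all below the Dnajb4+/+ values for 21 of the 41 genes, where this held for 19.4% of all genes, and all above them for 1, where this held for 16.1%. An adjusted p under 0.05 (limma, Benjamini-Hochberg over all genes) with a lower value was reached by 17 of the 41 genes, beside 9.57% of all genes, and with a higher value by 0, beside 5.09%. A difference of -0.5 or lower was found for 10 genes (1.43% of all genes) and of -1 or lower for 6 (0.319% of all genes). Since these values led to the choice of the set, nothing is read from the counts. The 6 genes were Tnnc2, Acta1, Myh1, Mylpf, Tnnt3 and Myl1, which make up 10.3% of the 58 genes of the whole array that were called lower by at least 2-fold, and 14.6% of the measured muscle genes. Probe sets with names ending in _s, _x or _a can bind more than 1 transcript, for _a transcripts of the same gene. They are called less specific below. Acta1, Tnnt3 and Myl1, and outside these 6 genes also Tnni1, Tnnt1 and Tcap, have only a probe set of the _a kind. They drop out when less specific probe sets are left out. Then 2 of 35 genes lay at -1 or lower and 6 at -0.5 or lower. With 16 added to each value these were 3 and 6 of 41, and with dim genes left out 3 and 5 of 11.

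**Figure D1:**
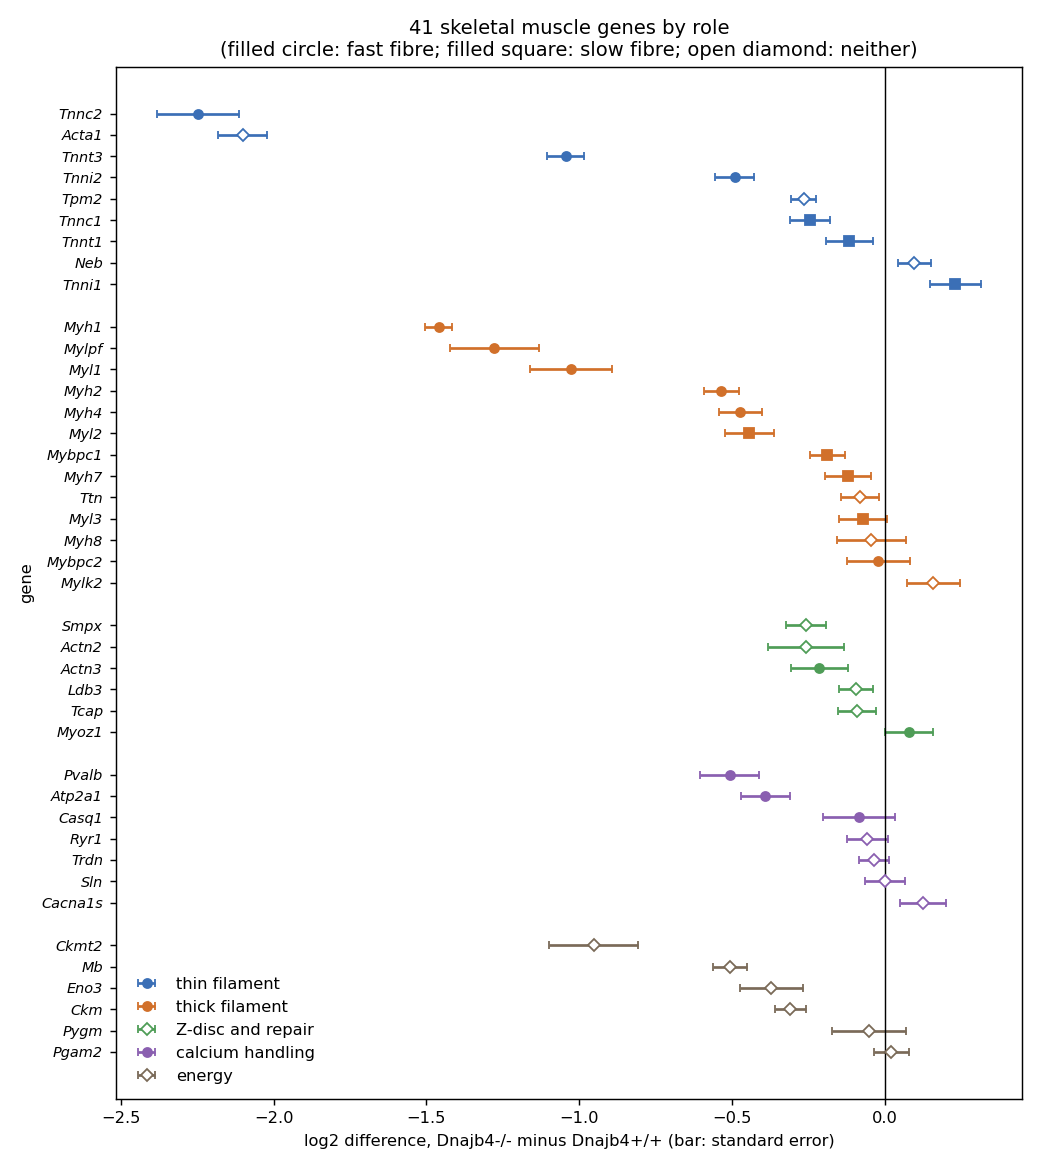
Log2 difference (x axis, Dnajb4-/- minus Dnajb4+/+, bars show the standard error, n = 3 arrays per genotype) of the 41 muscle genes (y axis), grouped by role and coloured accordingly, with fast fibre genes as filled circles, slow fibre genes as filled squares and the others as open diamonds. The differences run from -2.25 for Tnnc2 to 0.23 for Tnni1, and the genes at -1 or lower are thin and thick filament genes.

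The 3 genes with the largest differences were Tnnc2, Acta1 and Myh1, and the 250 bases before their annotated starts are shown because these genes lay furthest apart between the genotypes. They come from RefSeq on build GRCm38.p6, and none of the bases lies in a transcript annotated from that start. Tnnc2 lies on the minus strand (chr2:164779735-164779984), Acta1 on the minus strand (chr8:123894776-123895025) and Myh1 on the plus strand (chr11:67199852-67200101), and each is written 5′ to 3′ along its gene. Capitals mark every match to a motif of muscle promoters or to the TATA box, searched on both strands: the E-box CANNTG, bound by MyoD and its relatives, the MCAT element CATTCC, bound by TEAD factors, the TATA box TATAAA, the MEF2 box and the CArG box, bound by serum response factor.
Tnnc2: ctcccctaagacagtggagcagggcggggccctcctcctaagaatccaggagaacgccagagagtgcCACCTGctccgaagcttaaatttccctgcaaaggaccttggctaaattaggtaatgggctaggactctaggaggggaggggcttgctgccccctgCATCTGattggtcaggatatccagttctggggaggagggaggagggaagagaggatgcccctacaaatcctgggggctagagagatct
Acta1: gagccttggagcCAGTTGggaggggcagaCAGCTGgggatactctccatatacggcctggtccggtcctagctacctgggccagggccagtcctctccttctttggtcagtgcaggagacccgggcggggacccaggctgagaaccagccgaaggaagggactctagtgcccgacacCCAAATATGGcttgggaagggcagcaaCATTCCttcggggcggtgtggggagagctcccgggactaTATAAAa
Myh1: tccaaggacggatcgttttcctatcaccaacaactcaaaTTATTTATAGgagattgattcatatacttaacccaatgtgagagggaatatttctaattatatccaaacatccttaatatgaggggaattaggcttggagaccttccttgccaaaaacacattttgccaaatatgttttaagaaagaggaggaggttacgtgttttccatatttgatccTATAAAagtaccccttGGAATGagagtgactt

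The Tnnc2 window held 2 E-boxes and no other match. The Acta1 window held 2 E-boxes, a CArG box at positions -73 to -64 from the start, an MCAT element at -46 to -41 and a TATA box at -7 to -2. In Myh1 a MEF2 box at -211 to -202 overlapped a TATA box match on the other strand, and a second TATA box lay at -32 to -27 and an MCAT element at -16 to -11. Promoters in the table matched 32 of the 41 genes, with 39 windows of this length. An E-box was found in 32 of the 39 windows (66.2% of all 32851 windows held it), an MCAT element in 10 (12.6%), a TATA box in 7 (12.4%), a MEF2 box in 6 (2.92%) and a CArG box in 5 (1.47%). Split by fibre, with 11 windows of fast and 10 of slow fibre genes, the E-box was in 8 and 10, the MCAT element in 4 and 3, the TATA box in 3 and 2, the MEF2 box in 3 and 0 and the CArG box in 1 and 1. These matches describe the letters of the windows and say nothing about binding in these livers.

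Of the 9 thin filament genes, 7 were lower in Dnajb4-/- livers, with a median log2 difference of -0.27. Tnnc2, the troponin C of fast fibres, read 106, 102 and 131 on the Dnajb4+/+ arrays and 27.8, 20.4 and 23.4 on the Dnajb4-/- arrays, a log2 difference of -2.25 (standard error 0.13). Acta1, the actin of skeletal muscle, read 226, 203 and 226 in Dnajb4+/+ and 45.4, 53.2 and 54.5 in Dnajb4-/- livers, a log2 difference of -2.10 (standard error 0.08). For Tnnt3, the troponin T of fast fibres, the values were 34.96, 36.0 and 38.8 against 18.9, 16.8 and 17.5 (-1.04, standard error 0.06). In all these genes every Dnajb4-/- array lay below every Dnajb4+/+ array, and the gap between the genotypes was wider than the range within either. Tnni2, the inhibitory troponin of fast fibres, read 23.3, 22.5 and 22.3 against 17.3, 16.6 and 14.7 (-0.49, standard error 0.06). Tpm2, the beta tropomyosin that lies along the actin filament, had a mean of 37.1 ± 1.32 against 30.9 ± 0.512 (SD, n = 3; -0.27). The genotypes did not overlap in these genes either.

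Slow troponins differed less. Tnnc1, the troponin C of slow fibres and heart, read 38.9, 43.1 and 45.5 in Dnajb4+/+ and 35.5, 37.5 and 34.5 in Dnajb4-/- livers (-0.24, standard error 0.07), without overlap. Tnnt1, the slow troponin T, read 47.7, 53.8 and 45.7 against 45.9, 48.1 and 41.9 (-0.12, standard error 0.08), and the genotypes overlapped. Tnni1, the slow troponin I, was the gene of the set with the largest difference in the other direction, at 40.2, 41.2 and 35.7 against 50.9, 44.6 and 42.2 (0.23, standard error 0.08), and its Dnajb4-/- arrays all lay above. Neb encodes nebulin, the giant ruler of the thin filament, and read 87.0, 87.5 and 91.3 against 90.5, 101.6 and 92.7 (0.098, standard error 0.05), with overlap.

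Of the 13 thick filament genes, 12 were lower, with a median of -0.19. Myh1, the myosin heavy chain of fast 2X fibres, read 33.5, 32.1 and 33.0 on the Dnajb4+/+ arrays and 11.9, 11.4 and 12.5 on the Dnajb4-/- arrays as the mean of 3 probe sets (-1.46, standard error 0.05). Mylpf, the regulatory light chain of fast fibres, read 112, 83.7 and 84.3 against 41.2, 32.3 and 41.9 (-1.28, standard error 0.14). Myl1, the essential light chain of fast fibres, read 36.4, 40.6 and 40.2 against 21.4, 15.3 and 21.5 (-1.03, standard error 0.13). None of the 3 genes overlapped between the genotypes, although the spread within a genotype was wider for both light chains than for Myh1. The fast heavy chains Myh2 (13.7 ± 0.261 against 9.47 ± 0.646, SD, n = 3; -0.53) and Myh4 (12.1 ± 0.835 against 8.70 ± 0.632, SD, n = 3; -0.47) lay lower as well, close to the dim end of the scale, where the lowest value of the table is 3.90. Myh8, the perinatal heavy chain, read 12.1 ± 2.07 and 11.7 ± 0.605 (SD, n = 3) with overlap. Myh1, Myh2, Myh4 and Myh8 are neighbours on chromosome 11 with very similar coding sequences, so probe sets for these genes can read each other's RNA and their separate values are uncertain.

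The slow and cardiac light chain Myl2 read 16.6, 18.9 and 19.5 in Dnajb4+/+ and 14.6, 12.5 and 13.4 in Dnajb4-/- livers (-0.44, standard error 0.08), without overlap. Myl3, its essential partner in slow fibres and heart, read 46.3, 51.4 and 42.7 against 44.9, 41.6 and 47.1 (-0.070, standard error 0.08), and Myh7, the slow heavy chain, read 14.9, 15.0 and 15.0 against 14.4, 15.0 and 12.2 (-0.12, standard error 0.08). Both overlapped. Mybpc1 and Mybpc2, the slow and fast myosin binding proteins, read 12.8, 12.2 and 12.9 against 11.3, 10.3 and 11.7 (-0.19, standard error 0.06) and 22.2, 22.3 and 17.3 against 20.8, 20.8 and 19.0 (-0.020, standard error 0.10). Only the slow form was without overlap here. Ttn, the giant titin that spans the sarcomere from Z-disc to M-band, differed by -0.081, and Mylk2, the kinase of the skeletal regulatory light chain, read 23.1, 25.5 and 25.3 against 31.0, 27.3 and 24.6 (0.16, standard error 0.09), with overlap in both.

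**Figure D2:**
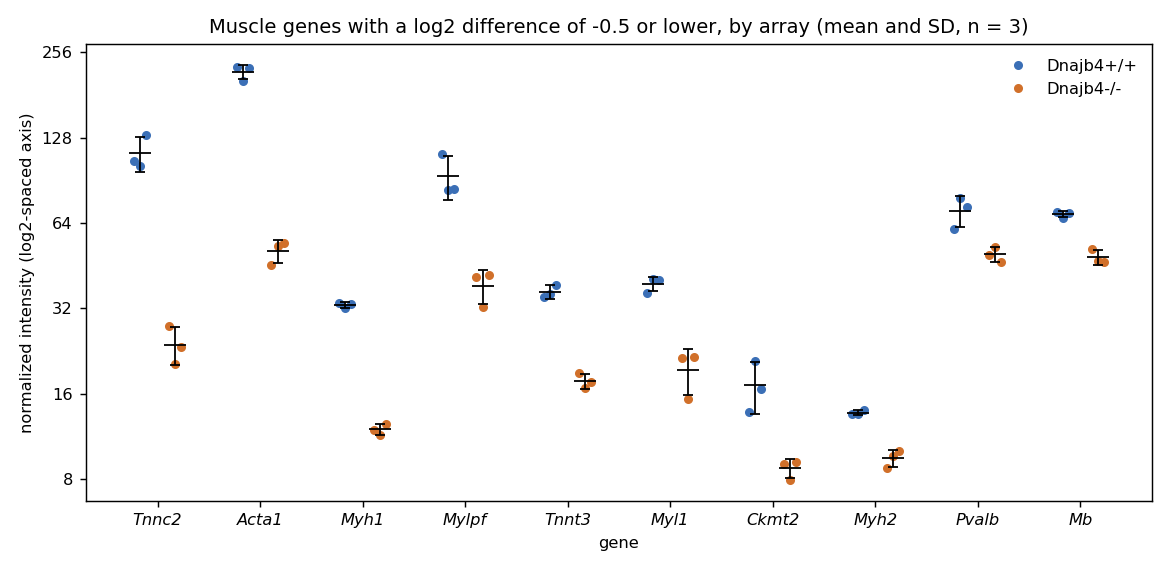
Normalized intensity (y axis, log2-spaced) of the 10 muscle genes with a log2 difference of -0.5 or lower (x axis), with a point for each of 3 Dnajb4+/+ (blue) and 3 Dnajb4-/- (orange) arrays and black bars for the mean and SD. In each gene the Dnajb4-/- points lie below the Dnajb4+/+ points, from Acta1 with 203 to 226 above 45.4 to 54.5 down to Ckmt2 with 13.7 to 20.9 above 7.93 to 9.20.

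The arrays were also described one by one across the muscle genes. The highest Dnajb4+/+ value came from array 1 in 9 of the 41 genes, from array 2 in 16 and from array 3 in 16, and for the 10 genes at -0.5 or lower from these arrays in 4, 3 and 3. The summed intensity of the 41 genes was 1602 to 1648 in Dnajb4+/+ and 1102 to 1138 in Dnajb4-/- livers. The number of genes at -1 or lower stayed between 5 and 7 when any 1 array was left out. As the genes were chosen with the difference between the genotypes known, nothing is read from these values. In bulk liver, fewer cells of a type and less RNA per cell cannot be told apart.

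The 6 measured genes of the set for the Z-disc, the plate that anchors the actin filaments, lay between -0.26 and 0.079. Smpx, a small stretch-responsive protein, read 7.70, 8.84 and 8.97 in Dnajb4+/+ and 7.20, 7.21 and 6.88 in Dnajb4-/- livers (-0.26, standard error 0.07), without overlap at the dim end of the scale. Actn2, the alpha-actinin of all striated muscle, read 15.1, 18.7 and 16.4 against 16.6, 13.1 and 12.4 (-0.26, standard error 0.12), with overlap. Actn3, the alpha-actinin of fast fibres, read 33.2, 29.3 and 29.8 against 29.2, 27.5 and 23.1 (-0.21, standard error 0.09), where the genotypes were apart by less than 0.1 units of intensity. Myoz1, a calcineurin-binding protein of fast fibres, read 19.9, 19.7 and 19.8 against 23.7, 19.2 and 20.1 (0.079, standard error 0.08) and overlapped, as did Ldb3 (-0.094) and Tcap (-0.089), both scaffolds of the Z-disc.

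Among the 7 calcium handling genes, Pvalb and Atp2a1 were apart between the genotypes and the other 5 overlapped, a share of 28.6% all below that lies near the 19.4% of all genes. Pvalb, the calcium buffer parvalbumin of fast fibres, read 61.0, 78.3 and 72.8 in Dnajb4+/+ and 49.4, 52.7 and 46.6 in Dnajb4-/- livers (-0.51, standard error 0.10). Atp2a1, the calcium pump of the fast sarcoplasmic reticulum, read 82.2, 97.1 and 98.5 against 67.8, 68.3 and 75.5 (-0.39, standard error 0.08). In both the gap between the genotypes was smaller than the range of the Dnajb4+/+ arrays. The store and release genes were dim and close to equal: Casq1, the fast calsequestrin, read 14.4, 18.04 and 13.4 against 14.5, 13.0 and 15.5 (-0.083, standard error 0.12), while Ryr1, the release channel, differed by -0.056 and Trdn, its anchor triadin, by -0.034. Cacna1s, the voltage sensor of the muscle membrane, read 9.27, 9.40 and 8.31 against 10.7, 9.11 and 9.68 (0.13, standard error 0.07), and Sln, the pump inhibitor sarcolipin, read 14.9, 15.2 and 13.1 against 14.7, 13.7 and 14.7 (0.00051).

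Of the 6 energy genes, 5 were lower. Ckmt2, the creatine kinase of muscle mitochondria, read 13.7, 20.9 and 16.7 in Dnajb4+/+ and 9.06, 7.93 and 9.20 in Dnajb4-/- livers (-0.95, standard error 0.15). Mb, the oxygen store myoglobin, read 70.2, 66.7 and 69.5 against 52.0, 47.0 and 46.5 as the mean of 2 probe sets (-0.51, standard error 0.05). Eno3, the enolase of muscle, read 61.0, 63.4 and 72.9 against 44.8, 57.2 and 50.9 (-0.37, standard error 0.10). In each of these genes the Dnajb4-/- arrays lay below all Dnajb4+/+ arrays, and so did those of Ckm, the cytosolic creatine kinase, at 68.7 ± 4.14 against 55.4 ± 0.682 (SD, n = 3; -0.31). Pygm, the glycogen phosphorylase of muscle (-0.050), and Pgam2, the muscle phosphoglycerate mutase (26.3, 26.6 and 27.5 against 29.3, 27.2 and 25.4; 0.023), overlapped.

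Fast and slow fibre genes were set side by side by the fibre in which each is best known. The 14 fast fibre genes had a median log2 difference of -0.50, with 13 lower, 11 all below the Dnajb4+/+ arrays (19.4% of all genes) and 5 at -1 or lower. For the 7 slow fibre genes the median was -0.12, with 6 lower, 3 all below the Dnajb4+/+ arrays, beside the same 19.4%, and 0 at -0.5 or lower. The fibre lists were not compared by a test, since both come from the contrast that led to the set. The 20 measured genes of neither fibre list had a median of -0.085, with Acta1 at -2.10 as the lowest. Myom2, the gene of a fast fibre M-band protein, is no member of the set and stands in neither list nor in the pairs below. It went the other way and was higher in Dnajb4-/- livers by 1.05 (limma, adjusted p = 4.06e-05).

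**Figure D3:**
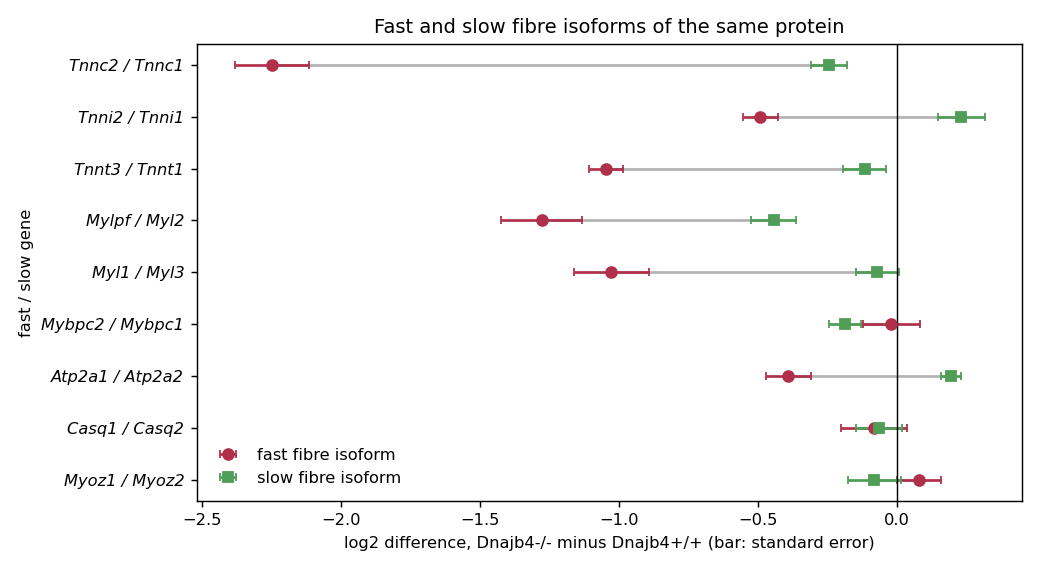
Log2 difference (x axis, Dnajb4-/- minus Dnajb4+/+, bars show the standard error, n = 3 arrays per genotype) of fast (red circles) and slow (green squares) isoforms of 9 proteins (y axis). The fast isoform lies further left in 7 pairs, most of all for troponin C with -2.25 against -0.24, and further right for the myosin binding proteins and the myozenins.

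In pairs of genes for the same protein, the fast isoform had the lower difference in 7 of 9 pairs. Every fast gene of the pairs belongs to the set, so nothing is read from this count. The 7 pairs include the calsequestrins, with a fast minus slow difference of only -0.019. Its difference lay 2.00 below that of the slow isoform for troponin C, 0.96 for the essential light chains, 0.93 for troponin T, 0.83 for the regulatory light chains and 0.72 for troponin I on the log2 scale. The fast calcium pump Atp2a1 (-0.39) stood against Atp2a2, the pump of slow muscle, heart and most other cells, which read 148, 147 and 149.8 in Dnajb4+/+ and 166, 173 and 170.9 in Dnajb4-/- livers and rose by 0.20 (limma, adjusted p = 0.0147). This call was lost without Dnajb4+/+ replicate 1 (adjusted p = 0.0567), Dnajb4-/- replicate 2 (0.0563) or Dnajb4-/- replicate 3 (0.0523). Of the Atp2a2 probe sets, those at 0.41, 0.33, 0.30 and 0.30 lay above Dnajb4+/+ without overlap. The brightest of them read 2182 in Dnajb4+/+ and 2903 in Dnajb4-/- livers on average. The dimmer probe sets, at -0.11 and -0.062, overlapped. Casq1 (-0.083) and Casq2, the cardiac and slow calsequestrin (-0.064, adjusted p = 0.662 from limma), both overlapped between the genotypes. The order was turned for the myosin binding proteins and for Myoz1 beside Myoz2, the slow myozenin (-0.081, adjusted p = 0.623 from limma), where each gene differed by less than 0.2. The fast form was lower in 7 of 9 pairs also with quantile normalization and with each array centred on its brighter probe sets, and in 6 of 9 without Dnajb4+/+ replicate 2 or Dnajb4-/- replicate 2. With less specific probe sets left out it was lower in 3 of the 5 pairs that remained. These alternatives use the same arrays and the same chosen genes, so nothing is read from their counts either.

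Probe sets for the same muscle gene often differed. Of the 14 genes with several probe sets, 8 had at least 1 at -0.5 or lower and another between -0.0455 and 0.21. For Myh1, 2 probe sets read 39.2, 40.7 and 40.0 against 8.51, 7.64 and 7.12 (-2.37) and 38.0, 31.9 and 38.7 against 6.97, 7.23 and 9.09 (-2.22), while the other read 25.2, 25.6 and 23.3 against 28.7, 27.2 and 30.0 (0.21). The probe set at -2.37 has a name ending in _a and that at -2.22 a name ending in _x. Thus the size of the Myh1 difference depends on which probe set is read, and the mean of -1.46 belongs to none of them. One Mb probe set read 72.5, 70.4 and 79.8 against 37.9, 32.7 and 33.5 (-1.10) and the other 68.0, 63.2 and 60.6 against 71.4, 67.6 and 64.7 (0.088). For Ckm the values were 133, 130.5 and 149 against 87.4, 87.1 and 87.3 (-0.65) for one and 32.6, 34.3 and 36.3 against 34.3, 36.1 and 35.2 (0.034) for the other.

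**Figure D4:**
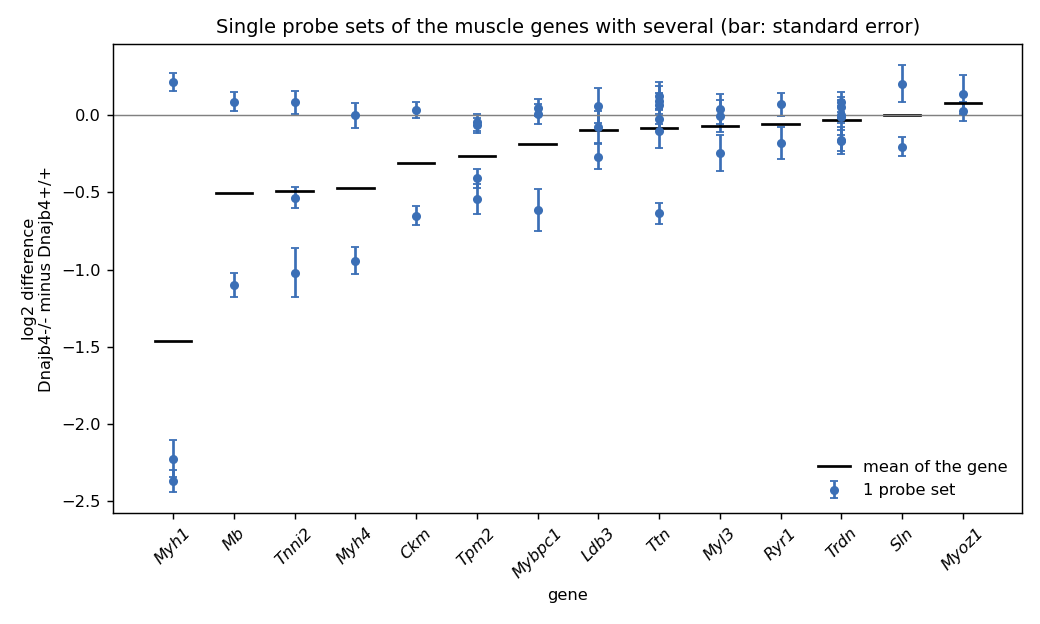
Log2 difference (y axis, Dnajb4-/- minus Dnajb4+/+, bars show the standard error, n = 3 arrays per genotype) of each probe set (blue points) of the 14 muscle genes with several (x axis), with the mean of the gene as a black line. Probe sets of Myh1 lie at -2.37, -2.22 and 0.21, and those of Mb at -1.10 and 0.088.

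A split also appeared in Tnni2, with probe sets at -1.02, -0.53 and 0.083, and in Myh4 at -0.94 and -0.00097. Here the unchanged probe sets were close to the dim end of the scale. That of Tnni2 read 8.13 against 8.58 on average, where the other probe sets read 48.2 and 30.1 in Dnajb4+/+ livers. That of Myh4 read 8.39 against 8.42, where the other read 17.4 in Dnajb4+/+ livers. Mybpc1 had 1 probe set at -0.62, where Dnajb4+/+ arrays read 20.3, 16.8 and 23.7 and Dnajb4-/- arrays 13.6, 11.5 and 14.4, and the others at 0.0075 and 0.048. Ttn had 1 of 6 at -0.64, with 14.0, 14.3 and 12.6 against 9.33, 8.48 and 8.55, and the others between -0.10 and 0.12. Averages over probe sets thus understate the difference seen by the lowest probe set of these genes. The part of each transcript that a probe set reads was not analysed here.

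Other genes of skeletal muscle, listed by role without members of the set, moved both ways. Of 81 measured genes in 4 lists, 7 were lower in Dnajb4-/- livers, 3 were higher and 71 did not pass the test, so that 8.64% were called lower beside 9.57% of all genes. Their median log2 difference was -0.012, beside 0.0075 for all genes. None of these genes fell by 2-fold under limma's test.

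Of 29 other sarcomere genes, 3 fell (10.3%, beside 9.57% of all genes), 1 rose and 25 did not pass. Myom2, the M-band protein myomesin 2 of fast fibres, read 50.0, 49.5 and 54.8 in Dnajb4+/+ and 105, 106 and 109 in Dnajb4-/- livers, a log2 difference of 1.05 (standard error 0.05, limma adjusted p = 4.06e-05). In 3 of its 4 probe sets the Dnajb4-/- arrays lay above all Dnajb4+/+ arrays, at differences of 1.29 to 1.54, and the other, dim, read 6.22 and 6.25 on average. Csrp3, the muscle LIM protein of the Z-disc, was bright in these livers and fell from 699.9 ± 28.1 to 506 ± 13.2 (SD, n = 3; -0.47, adjusted p = 9.78e-04). Myot, the Z-disc protein myotilin, fell from 11.6 ± 1.21 to 7.96 ± 0.624 (SD, n = 3; -0.54, adjusted p = 0.00983), and Tpm1, the alpha tropomyosin found in many cell types, fell by 0.26 (adjusted p = 0.0136). One of the 4 Tpm1 probe sets carried this, at -0.69, while the others lay between -0.15 and -0.086, and the call of the gene was lost with less specific probe sets left out (adjusted p = 0.239) and without Dnajb4+/+ replicate 3 (0.0509).

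Of 16 other muscle energy genes, 4 fell (25%, beside 9.57% of all genes), 1 rose and 11 did not pass. Slc25a4, the ADP/ATP carrier of heart and muscle mitochondria, read 98.1, 91.8 and 100.4 in Dnajb4+/+ and 70.8, 75.2 and 70.5 in Dnajb4-/- livers (-0.42, limma adjusted p = 0.00218). Its less specific probe sets lay at -0.71, -0.66 and -0.46 and the remaining dim one at 0.14. Fabp3, the fatty acid binding protein of heart and muscle, fell by 0.25 (adjusted p = 0.0461), with probe sets at -0.58 and 0.071, Cox6a2, a respiratory chain subunit of striated muscle, by 0.25 (adjusted p = 0.0294) and Aldoa, the aldolase of muscle and many other cells, by 0.18 (adjusted p = 0.0163). These 3 calls were each lost on leaving out any of 5 of the 6 arrays, and held only without Dnajb4+/+ replicate 1 for Fabp3 (lost at adjusted p = 0.0942 to 0.132), Dnajb4-/- replicate 1 for Cox6a2 (0.0511 to 0.0925) and Dnajb4+/+ replicate 2 for Aldoa (0.0511 to 0.0620). Phkg1, a subunit of the kinase that activates muscle glycogen phosphorylase, rose by 0.19 near the lowest values of the table (adjusted p = 0.0345), a call that held only without Dnajb4+/+ replicate 3 when arrays were left out (0.0596 to 0.108 without any other). Of 24 other genes of calcium handling, excitation and the neuromuscular junction, Atp2a2 rose and 23 did not pass, among them Jsrp1, a protein of the calcium release site (0.27, adjusted p = 0.0639), and Chrnb1, an acetylcholine receptor subunit (-0.20, adjusted p = 0.425). None of the 12 measured myogenic regulators and atrophy genes passed limma's test, with Trim63, the atrophy ubiquitin ligase, at -0.31 (adjusted p = 0.150) and Trim54, its relative, at 0.17 (adjusted p = 0.128).

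**Figure D5:**
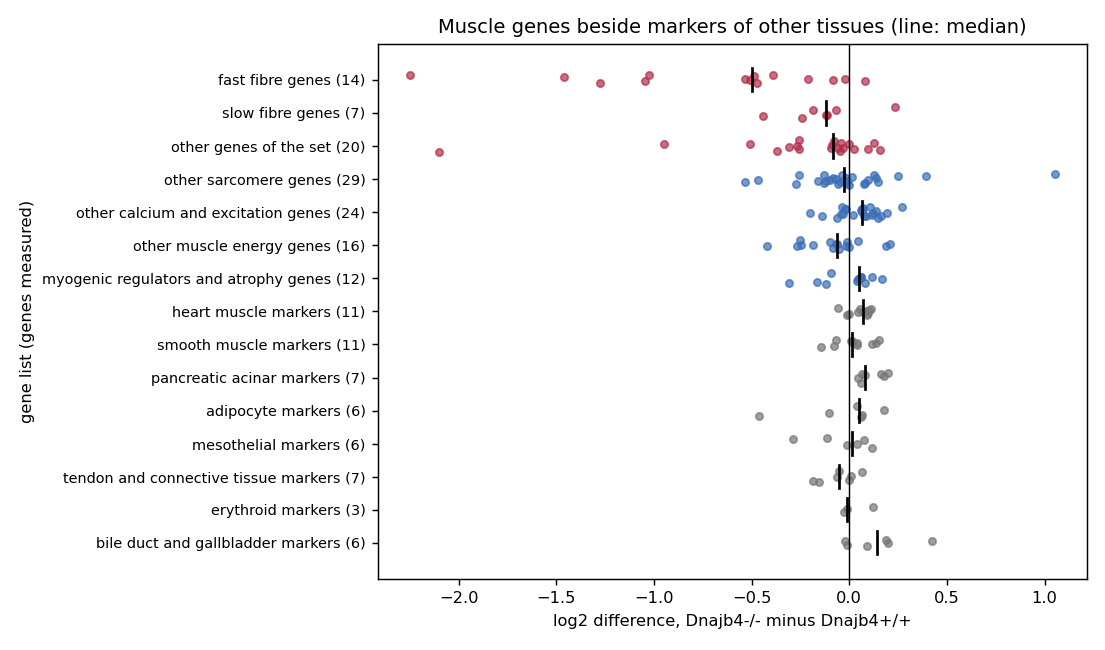
Log2 difference (x axis, Dnajb4-/- minus Dnajb4+/+) of each measured gene (points) of the set (red), of the other muscle lists (blue) and of the lists for other tissues (grey), one list per row with its number of genes (y axis) and its median as a black line. Values of -1 or lower stand in the fast fibre row and, for Acta1, in the row of the set's other genes, and Myom2 stands alone on the right at 1.05.

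Markers of other tissues that a liver sample can hold were read beside the muscle genes. None of 11 heart muscle markers passed limma's test (median 0.070, from -0.057 for Myl7, the atrial regulatory light chain, to 0.11 for Nppb, the gene of brain natriuretic peptide), and their summed intensity was 214 to 221 in Dnajb4+/+ and 217 to 232 in Dnajb4-/- livers. A pair of probe sets that names both Myh7 and the heart's Myh6 lay at 0.18 and 0.19. None of 11 smooth muscle markers passed (median 0.015, from -0.14 for Cnn1, the smooth muscle calponin, to 0.15 for Myh11, the smooth muscle myosin), with sums of 644 to 659 and 634 to 660.4. None of 7 pancreatic acinar markers passed (median 0.079, with Cel, a lipase, at 0.20 and Cela3b, an elastase, at 0.18; sums of 143 to 154 and 154 to 171), and none of 7 tendon and connective tissue markers (median -0.055, with Col3a1, a fibrillar collagen, at -0.18 and Fmod, a tendon proteoglycan, at -0.15; sums of 349 to 367 and 322 to 336). None of these markers was listed at 0, as GCRMA gives every probe set a value.

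Markers of fat and of the liver's surface went both ways, with 4 of 6 adipocyte markers (median 0.050) and 3 of 6 mesothelial markers (median 0.015) higher in Dnajb4-/- livers. The 4 higher adipocyte markers overlapped between the genotypes, and the 2 lower ones did not (33.3% of the list, beside 19.4% of all genes). Of these 2, Fabp4, a fatty acid binding protein of fat cells, read 93.0 against 86.6 on average (-0.10, limma adjusted p = 0.113). Adipoq, the fat cell hormone adiponectin, fell from 19.8 ± 1.78 to 14.4 ± 1.58 (SD, n = 3; -0.46, limma adjusted p = 0.0220), a call that held on leaving out Dnajb4+/+ replicate 2 or Dnajb4-/- replicate 3 but not on leaving out any other array (0.0579 to 0.0750), while the other 5 of 6 adipocyte markers did not pass (sums of 204 to 219.7 and 198 to 214). Upk3b, a marker of the mesothelium that covers the organs, fell from 39.0 ± 1.41 to 31.97 ± 1.56 (SD, n = 3; -0.29, adjusted p = 0.0121; 0.302 with its brightest probe set), and the other 5 of 6 mesothelial markers did not pass (sums of 144 to 159.9 and 143 to 146). Of 6 markers of bile ducts and gallbladder, Sox9, a transcription factor of the duct lineage, rose by 0.42 (adjusted p = 0.00481; list median 0.14), with sums of 159 to 176 and 185 to 189. The 3 erythroid markers with a probe set of their own did not pass (median -0.014, sums of 1480.3 to 1514 and 1439 to 1494), among them Alas2, the erythroid enzyme of heme synthesis (-0.025), and Hba-a1, an alpha globin (0.12). However, 4 bright probe sets that name several globin genes were lower in Dnajb4-/- livers by 0.29 to 0.32 on the log2 scale, without overlap. The part of blood, fat and mesothelium in the muscle differences was not tested. Of the 9 hepatocyte markers, Tat, a tyrosine-degrading enzyme, fell by 0.42 (adjusted p = 9.95e-04), Apob, the structural protein of lipoproteins, rose by 0.42 (adjusted p = 9.95e-04) and Hnf4a, a hepatocyte transcription factor, rose by 0.17 (adjusted p = 0.0311, and 0.0660 to 0.0976 without any 1 array), with sums of 132891 to 133504 and 130251 to 131529.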

How the data were processed

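The authors hybridized liver RNA of 6 mice, 1 array each, and processed the arrays in GeneSpring by GCRMA with global median centring (versions are not given in the sources used here). The deposited intensity values are linear, from 3.90 to 33106 with array medians of 31.8 to 32.5. GCRMA pulls dim signals towards a floor, which can shrink or inflate log2 differences of dim genes. The number of arrays limits the precision.

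Values were put on the log2 scale. Of 45101 probe sets, 64 controls, those without a gene symbol and 932 with several were left out, and 34945 were averaged into 18193 genes, named through GEO's platform annotation. Genotypes were compared with limma 3.58.1 (lmFit, eBayes) in R 4.3.3, two-sided, with Benjamini-Hochberg adjustment over all genes at a threshold of 0.05, without a replicate block. Standard errors are limma's moderated ones. The procedure was tested on simulated data. Figures were drawn with matplotlib 3.10.9.

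The genes and lists were chosen with earlier results of these data known. In each role the 3 genes with the largest absolute difference, the fast and slow pairs and the genes of the set that were not lower are given by array. Of other lists, the called genes furthest from 0 (at most 4) and all called the other way are named, or up to 2 where none was called. Jsrp1 and Chrnb1 were chosen after their values were seen. Protein sequences were not used here. Student's t-test, which the study's statistics section gives for other measurements, was run as an alternative, beside quantile normalization, centring, a filter on dim genes, other ways to summarise probe sets, an offset of 16, eBayes with trend, a replicate block and leaving out each replicate.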

Additional observations from a re-analysis of the deposited data

How the results depend on the processing

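The median log2 difference of the 41 muscle genes was -0.21. It was -0.12 without less specific probe sets (names ending in _s, _x or _a, 35 genes), -0.096 with 16 added to each value and -0.39 with dim genes left out (11 genes), and between -0.24 and -0.17 without any 1 replicate. That of the fast fibre genes was -0.50, then -0.33 with 16 added and -0.89 with dim genes left out (4 genes), and -0.53 to -0.46 without any 1 replicate. That of the slow fibre genes stayed between -0.19 and -0.086 under all alternatives, with -0.16 to -0.11 without any 1 replicate. Of the 7 slow fibre genes, only 2 remained with dim genes left out and 5 without less specific probe sets. Among single genes, Myh1 turned to 0.21 with the brightest probe set and also without less specific probe sets, and Mb turned to 0.088 with the brightest probe set. Fabp3 turned to 0.071 with the brightest probe set and Slc25a4 to 0.14 without less specific probe sets. Of the genes of the set other than Myh1 and Mb, 10 with differences between -0.083 and 0.079 changed sign under at least 1 alternative. These include Mybpc2 with each array centred and Sln with quantile normalization. The remaining genes of the set kept their sign wherever an alternative held them. Acta1, Tnnt3, Myl1, Tnni1, Tnnt1 and Tcap had no value without less specific probe sets, and dim genes had none with the dim filter. As the set was chosen on this contrast and the alternatives use the same arrays, nothing is read from the kept signs. The other muscle genes that fell numbered 7, then 4 with the brightest probe set, 2 without less specific probe sets, 4 with the replicate block and 3 to 5 without any 1 replicate; those that rose numbered 3, then 1 with the block and 1 to 3 without any 1 replicate. Over all genes, 1741 were lower and 926 higher. With the replicate block these were 1024 and 505, without any 1 replicate 1036 to 1352 and 516 to 657, and with each array centred on its brighter probe sets 1482 and 1486, which moved the share of higher calls from 34.7% to 50.1%. That share was 44.6% with quantile normalization. Deviations of arrays with the same replicate number correlated at -0.14 to 0.0091, and those of arrays with different numbers at -0.10 to 0.12. A pairing by replicate number was not seen, though 3 arrays per genotype are too few to settle this. The methods' t-test called 2854 lower and 2062 higher genes at an unadjusted p of 0.05 or less, of them 9 and 4 other muscle genes, and 1343 and 695 after Benjamini-Hochberg adjustment. For the results that moved, the cause was not tested. Signal over background limits the dim genes, for which no detection call was used.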
